A study of Mus musculus with 6 samples.

Results

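The 8 genes described here carry vitamin A out of the liver or convert it within cells: Rbp4, Rdh7, Rdh10, Rdh11, Dhrs3, Aldh1a1, Aldh1a7 and Cyp26a1. They were taken by gene symbol from 22068 symbols measured in mouse liver, and all 8 were found. The tissue was liver of C57BL/6 mice aged 6 weeks, profiled by sequencing of polyadenylated RNA. The 3 Mst1/2 liver-dKO libraries (dKO) came from Mst1-/-; Mst2fl/fl; alb-Cre+/+ mice, and the 3 control libraries from Mst1-/-; Mst2fl/fl; alb-Cre-/- mice. By the labels Mst1 was thus null in both groups, and the groups differed in the albumin-driven Cre recombinase that deletes the floxed Mst2 in cells that use the albumin promoter, chiefly hepatocytes. Mst1 and Mst2 are kinases of the Hippo pathway, which holds the coactivators YAP and TAZ in check. The comparison asked which transcripts differ between Mst1-null livers with and without that deletion. The labels number the replicates but name no animals. The p-values therefore rest on how far these libraries scatter, which may be technical.

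The liver is the main store of vitamin A. Hepatocytes take it up, stellate cells store it as retinyl esters, and hepatocytes release retinol into blood bound to retinol-binding protein, which travels with transthyretin. Inside cells, dehydrogenases convert retinol and retinal into each other, aldehyde dehydrogenases oxidise retinal to retinoic acid, and CYP26 enzymes break retinoic acid down. Retinoic acid acts through the nuclear receptors RAR and RXR, whose targets include genes of its own breakdown.

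Upstream sequences are shown for Aldh1a1 and Aldh1a7, neighbouring paralogs whose values are compared below, and for Cyp26a1, the member with the widest spread between libraries. The 250 bases before the annotated start are given 5′ to 3′ on the gene's own strand, from RefSeq promoters of build GRCm38.p6, with position -1 as the last base before the start. In the Aldh1a1 sequence (chr19:20601718-20601967, + strand, the second of the listed Aldh1a1 starts) and the Aldh1a7 sequence (chr19:20727557-20727806, - strand), capitals mark the longest run the pair shares, 65 bases from position -94 to -30. In the Cyp26a1 sequence (chr19:37697558-37697807, + strand), capitals mark 2 hexamers in the arrangement that RAR and RXR dimers are known to bind.
Aldh1a1: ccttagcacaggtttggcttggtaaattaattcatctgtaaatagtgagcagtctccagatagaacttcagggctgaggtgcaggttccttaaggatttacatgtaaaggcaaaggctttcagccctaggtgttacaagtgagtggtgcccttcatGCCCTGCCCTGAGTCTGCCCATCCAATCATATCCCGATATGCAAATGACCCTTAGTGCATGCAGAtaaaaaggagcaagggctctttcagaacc
Aldh1a7: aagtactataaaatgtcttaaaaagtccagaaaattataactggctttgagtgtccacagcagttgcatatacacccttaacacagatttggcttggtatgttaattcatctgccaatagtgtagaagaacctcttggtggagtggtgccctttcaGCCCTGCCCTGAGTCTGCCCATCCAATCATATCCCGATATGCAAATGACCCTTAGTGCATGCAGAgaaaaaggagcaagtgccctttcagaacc
Cyp26a1: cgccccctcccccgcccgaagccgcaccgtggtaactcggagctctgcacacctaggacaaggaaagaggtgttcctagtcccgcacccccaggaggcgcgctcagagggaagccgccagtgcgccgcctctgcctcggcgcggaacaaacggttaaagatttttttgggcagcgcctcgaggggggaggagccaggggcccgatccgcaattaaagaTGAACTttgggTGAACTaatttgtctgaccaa

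Aldh1a1 and Aldh1a7 lie next to each other on chromosome 19 of GRCm38.p6, with 0 coding genes between them. Of the last 100 bases before their printed starts, 94 were identical. The shared run, picked from this pair, occurred in 2 of 32851 listed promoters, which are the pair itself. The repeat before Cyp26a1 spans positions -32 to -16 and reads AGTTCA, 5 bases, AGTTCA on the other strand. A search of both strands for 2 hexamers in the same direction with 5 bases between matched 29 of the 32851 promoters (0.0883%). Each hexamer could be AGGTCA or AGTTCA, or either of these with G as its opening base. The table held 13 starts of 7 members, without Rdh10, and of these 7 genes only Cyp26a1 had such a match. Spacings of 2 bases (57 promoters, 0.174%) and 1 base (54 promoters, 0.164%) matched no listed start of the 7 genes. The hexamer GGAATG, which TEAD factors, the DNA-binding partners of YAP and TAZ, recognise, was present on either strand before 12.6% of all listed starts. Among these were the first listed start of Rdh7 and that of Aldh1a1, which is not the Aldh1a1 start printed above. These matches describe letters in this window and say nothing of binding.

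Levels are given as RPKM (reads per kilobase of transcript, scaled to the depth of the library), as the authors deposited them. Read totals were not used here; the spacing of low values gave about 21.0 to 24.1 M reads in dKO libraries and 17.1 to 24.8 M reads in control libraries. The 11062 genes that averaged 1 RPKM or more, among them all 8 members, were tested with limma on log2(RPKM + 1). A gene was called where the adjusted p (Benjamini-Hochberg) was below 0.05. Log2 changes are dKO minus control on that scale. Adding 1 makes the changes of low genes look smaller than they are. Group values are means ± SD (n = 3 libraries). Over all tested genes 1965 were called higher in dKO (17.8%) and 240 lower (2.17%), so that 89.1% of calls were increases, against 58.7% after median-ratio scaling. The median log2 change of all tested genes was 0.23, and -0.0050 after that scaling. The dKO replicate 3 library stood apart on the first principal component (49.0, against 20.3 and 19.2 in the other dKO libraries and -35.7 to -25.4 in controls) and held the highest of the 6 values at 52.4% of tested genes. Stk3, which encodes Mst2, measured 4.25 to 5.32 RPKM in dKO and 5.20 to 6.00 RPKM in control libraries, and Stk4, which encodes Mst1, measured 4.93 to 5.84 RPKM in dKO and 4.66 to 5.50 RPKM in control libraries. Since 1 value covers the whole gene, a deleted exon would not show in it, so neither gene tested the labels.

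Of the 8 members, 2 were called higher in dKO liver and 0 lower with limma, against 17.8% and 2.17% of all tested genes. The called genes were Aldh1a7, an aldehyde dehydrogenase of rodents, at 2.25 times its control level, and Dhrs3, a retinal reductase, at 1.59 times. At an unadjusted p under 0.05, 4 members were higher and 0 lower, against 33.0% and 4.91% of all tested genes. In bulk tissue more or fewer cells of a type and more or less RNA per cell cannot be told apart. The median log2 change of the 8 was 0.48, beside 0.23 for all tested genes, and 7 of 8 changes were positive, beside 76.1% of all tested genes. The groups did not overlap at 4 members, Aldh1a7, Dhrs3, Rdh11 and Rbp4, all higher in dKO, and this was so at 38.3% of all tested genes (6.73% did not overlap in the lower direction). After median-ratio scaling 1 member, Aldh1a7, was called higher, beside 873 higher and 614 lower of all 11062 tested genes.

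**Figure D1:**
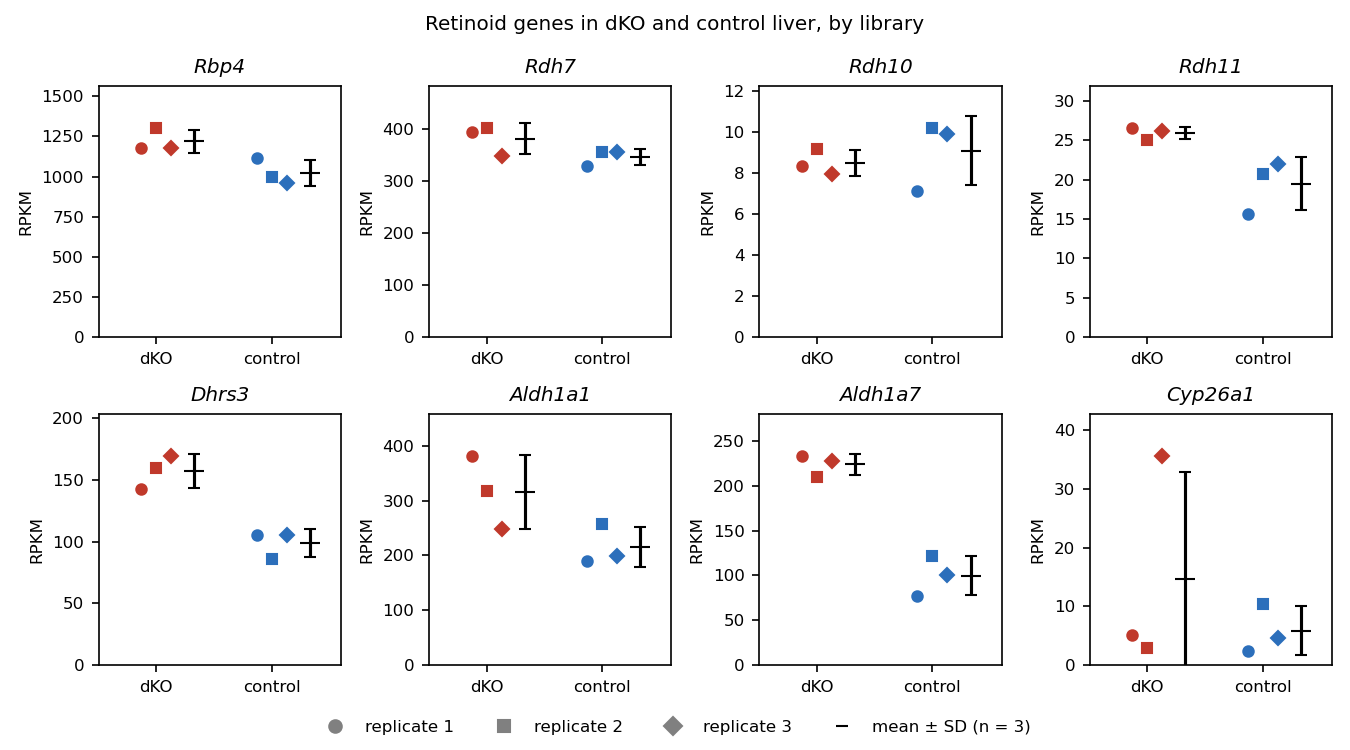
RPKM of the 8 genes (y axis, from 0) in the 3 dKO and 3 control libraries, with the mean ± SD of each group beside the points; the lower end of the Cyp26a1 dKO bar falls below the axis. Aldh1a7 lay between 210 and 234 RPKM in dKO, above the 77.4 to 121 RPKM of control, while the Cyp26a1 dKO mean rests on the 35.7 RPKM of replicate 3.

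The levels spanned a wide range. In both groups Rbp4 was the highest per length, and Rdh10 and Cyp26a1 were the lowest in control. Control libraries gave the order Rbp4, Rdh7, Aldh1a1, then Aldh1a7 (77.4 to 121 RPKM) and Dhrs3 (85.9 to 105 RPKM), which overlapped, then Rdh11, and last Rdh10 (7.14 to 10.2 RPKM) and Cyp26a1 (2.43 to 10.4 RPKM), which overlapped as well. In dKO libraries Aldh1a7 (210 to 234 RPKM) stood clear of Dhrs3 (143 to 170 RPKM), and Aldh1a1 (248 to 382 RPKM) overlapped Rdh7 (348 to 403 RPKM).

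Rbp4 encodes the plasma carrier that takes retinol from hepatocytes to other tissues. It measured 1177, 1304 and 1180.2 RPKM in dKO replicates 1, 2 and 3, against 1117, 995 and 959.8 RPKM in control replicates 1, 2 and 3. Every dKO library was above every control library, by a small margin for control replicate 1. The means were 1220.2 ± 72.3 RPKM in dKO and 1024 ± 82.3 RPKM in control, a log2 change of 0.25 ± 0.18 (SE), at a limma adjusted p of 0.331 and a 95% interval from -0.16 to 0.67. The change was close to the median of all tested genes, and after median-ratio scaling the Rbp4 log2 change was -0.033.

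Ttr encodes transthyretin, with which RBP4 circulates, and it was called lower in dKO liver. It measured 3417, 3655 and 1646 RPKM in dKO libraries, against 6846, 5004 and 6818 RPKM in control libraries. Its log2 change was -1.17 ± 0.33 (SE), at a limma adjusted p of 0.0413, and 10 of 16 alternative settings ended the call (limma adjusted p of 0.00365 to 0.308). Per library, Rbp4 RPKM came to 34.4%, 35.7% and 71.7% of Ttr RPKM in dKO and to 16.3%, 19.9% and 14.1% in control. The ratio was higher in each dKO library than in any control library, and it was highest in dKO replicate 3, which held the lowest Ttr value. The difference of the log2 ratios was 1.42, with an exact two-sided permutation p of 0.1, the smallest that 3 against 3 libraries can give. Without dKO replicate 3 the difference was 1.08. A scaling factor per library does not move this ratio, and it shows unequal change of the pair, not which member changed.

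**Figure D2:**
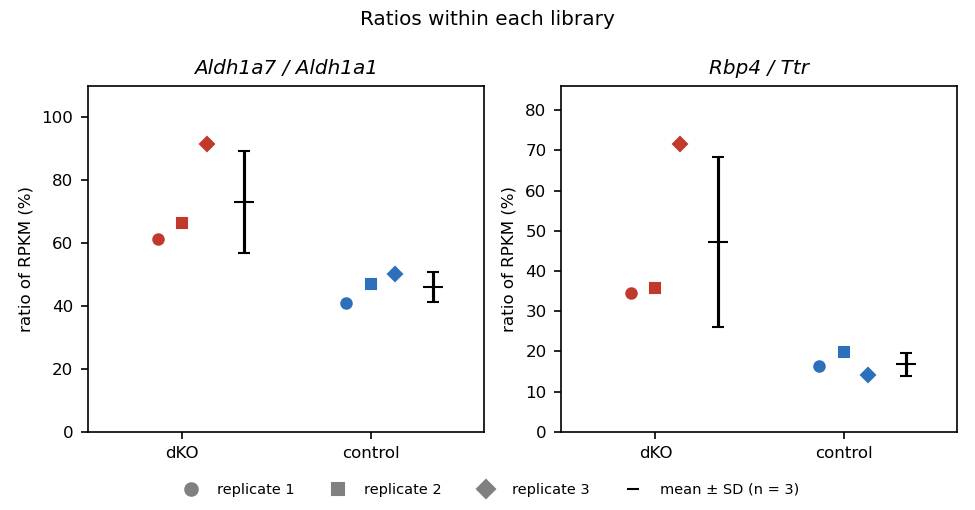
Ratio of RPKM within each library, in percent (y axis, from 0), for Aldh1a7 over Aldh1a1 and for Rbp4 over Ttr, in dKO and control libraries with the mean ± SD of each group. Both ratios were higher in all 3 dKO libraries than in any control library, with dKO replicate 3 the highest at 91.7% and 71.7%.

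Among the enzymes that convert retinol and retinal into each other, Dhrs3 was called higher and the other 3 were not called. Dhrs3 reduces retinal to retinol, is known to be induced by retinoic acid, and works together with RDH10. It measured 143, 159.97 and 169.8 RPKM in dKO libraries, against 105.4, 85.9 and 105.4 RPKM in control libraries, with no overlap. The means were 157.5 ± 13.7 RPKM in dKO and 98.9 ± 11.3 RPKM in control. The log2 change was 0.67 ± 0.16 (SE), at a limma adjusted p of 0.023, and 13.2% of all tested genes had a larger one. The call was lost in 7 of 16 alternatives, with limma adjusted p from 0.00611 to 0.18 over all 16. Among them were median-ratio scaling (log2 change 0.38, limma adjusted p of 0.18), upper-quartile scaling (0.137), and the absence of dKO replicate 2 (0.0589), dKO replicate 3 (0.0542), control replicate 1 (0.0596) or control replicate 3 (0.0622).

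Rdh10 encodes the retinol dehydrogenase whose product feeds retinoic acid synthesis, the step that DHRS3 runs backwards. Its levels were 8.33, 9.18 and 7.95 RPKM in dKO libraries and 7.14, 10.2 and 9.88 RPKM in control libraries, so the groups overlapped. The log2 change of -0.07 ± 0.15 (SE) had a limma adjusted p of 0.738 and a 95% interval from -0.42 to 0.27. Its sign turned without control replicate 2, where the Rdh10 log2 change was 0.0092.

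Rdh11 encodes a reductase of the endoplasmic reticulum that acts on retinal and other aldehydes. It measured 26.6, 25.0 and 26.2 RPKM in dKO libraries, against 15.6, 20.7 and 22.0 RPKM in control libraries. The dKO libraries lay close together (coefficient of variation 3.09%) and above all controls (17.3%). The log2 change was 0.41 ± 0.15 (SE), at a limma adjusted p of 0.0782. It passed the threshold in 1 of 16 alternatives, sample weights (limma adjusted p of 0.0277), and was 0.14 after median-ratio scaling.

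Rdh7 encodes a short-chain dehydrogenase of mouse liver that can act on retinol. Its levels were 395, 403 and 348 RPKM in dKO libraries and 330, 357 and 356 RPKM in control libraries, and they overlapped. The log2 change was 0.13 ± 0.16 (SE), at a limma adjusted p of 0.564, and it was -0.15 after median-ratio scaling. Of the 50-base windows of its transcript, 13.2% also occur in transcripts of other genes, mainly of the Rdh cluster on chromosome 10, so part of its reads could have been assigned to relatives.

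Aldh1a1 and Aldh1a7 encode cytosolic aldehyde dehydrogenases, and their open reading frames are 91.6% identical over 1506 bases. Aldh1a1 oxidises retinal to retinoic acid. Aldh1a7 is its rodent paralog, reported to act poorly on retinal. Aldh1a7 measured 233.7, 210.3 and 227.6 RPKM in dKO libraries, against 77.4, 121.3 and 100.4 RPKM in control libraries. The lowest dKO library was well above the highest control library. The means were 223.9 ± 12.1 RPKM in dKO and 99.7 ± 22.0 RPKM in control, and the log2 change was 1.18 ± 0.19 (SE), at a limma adjusted p of 0.00639. The Aldh1a7 call held in all 16 alternatives (limma adjusted p of 0.000196 to 0.0271), with a log2 change of 0.90 after median-ratio scaling and 1.01 to 1.33 with 1 library left out, and 3.6% of tested genes had a larger change.

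Aldh1a1 measured 382, 316.9 and 248.3 RPKM in dKO libraries and 189.1, 257.5 and 199.4 RPKM in control libraries. Control replicate 2 lay above dKO replicate 3, so the groups overlapped. The log2 change was 0.54 ± 0.21 (SE), at a limma adjusted p of 0.1. It passed the threshold under quantile normalization (limma adjusted p of 0.0441) and with sample weights (0.002), and over the 16 alternatives the limma adjusted p of Aldh1a1 ran from 0.002 to 0.507.

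Reads of the pair could be exchanged at 151 of the 50-base windows by exact match alone. These were 6.54% of the Aldh1a1 transcript and 7.49% of the Aldh1a7 transcript. Shorter reads or alignment with mismatches could add to these shares, so single values of the pair carry that uncertainty. Their sum was 615.7, 527.3 and 475.9 RPKM in dKO libraries, against 266.5, 378.8 and 299.7 RPKM in control libraries, with no overlap. On the log2 scale the sums differed by 0.78, or 0.50 after median-ratio scaling, with an exact two-sided permutation p of 0.1, again the smallest possible (0.2 after that scaling). Aldh1a7 came to 61.2%, 66.4% and 91.7% of Aldh1a1 in dKO libraries and to 40.9%, 47.1% and 50.3% in control libraries. The log2 ratio was thus higher by 0.64 in dKO, with the same exact permutation p of 0.1. Without dKO replicate 3 it was higher by 0.47.

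Cyp26a1 encodes the main retinoic acid hydroxylase of liver and is itself induced by retinoic acid. It is the member with the hexamer repeat printed above. It measured 5.11, 2.92 and 35.7 RPKM in dKO libraries, against 2.43, 10.4 and 4.61 RPKM in control libraries. The dKO replicate 3 value was the highest of the 6, and the other dKO libraries lay within the control range. At the estimated depths these levels stand for about 74 to 1537 reads. The coefficient of variation was 126% in dKO and 71.0% in control, the widest of the 8 members in both groups. The log2 change of 0.67 ± 0.92 (SE) had a limma adjusted p of 0.623 and a 95% interval from -1.60 to 2.93. Without dKO replicate 3 the Cyp26a1 log2 change was -0.30 (limma adjusted p of 0.741).

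**Figure D3:**
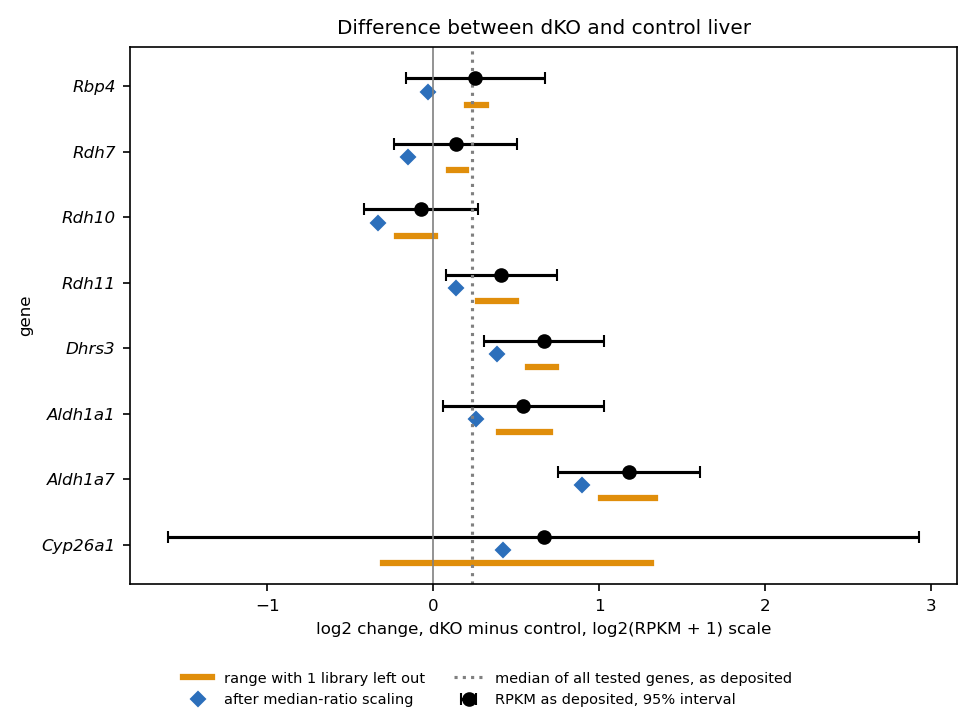
Log2 change of each gene, dKO minus control in log2(RPKM + 1) units (x axis), with its 95% interval, its value after median-ratio scaling and its range with 1 library left out; the dotted line is the median of all tested genes, 0.23. The Aldh1a7 interval runs from 0.75 to 1.61, while that of Cyp26a1 runs from -1.60 to 2.93.

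Of 54 further genes of retinoid handling, 39 were tested, of which 4 were called higher (10.3%, beside 17.8% of all tested genes) and 7 lower (17.9%, beside 2.17%). After median-ratio scaling 2 were called higher and 8 lower, beside 873 higher and 614 lower of all 11062 tested genes. Without that scaling the median log2 change of the list was 0.07, beside 0.23 for all tested genes. Among the binding and transport genes, 1 of 4 tested was called, Ttr. Stra6, the RBP4 receptor of other tissues, was listed at 0 in all 6 libraries.

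Of 6 genes of retinyl ester storage and hydrolysis, 1 was called, the carboxylesterase gene Ces1d. It fell to 134.2 ± 16.7 RPKM in dKO, against 196.3 ± 18.7 RPKM in control, with a limma adjusted p of 0.0474 that 9 of 16 alternatives raised above the threshold (range 0.0226 to 0.126). Lrat, which makes retinyl esters in stellate cells, measured 7.54, 4.69 and 17.4 RPKM in dKO libraries and 6.96, 8.43 and 9.31 RPKM in control libraries (limma adjusted p of 0.911).

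Among 11 tested genes of retinol and retinal interconversion 3 were called, all lower. Rdh9, a short-chain dehydrogenase gene of the same cluster as Rdh7, measured 22.4, 8.19 and 8.43 RPKM in dKO libraries, against 51.3, 55.5 and 49.6 RPKM in control libraries. All dKO values were below all control values, and the log2 change was -2.07 ± 0.34 (SE), at a limma adjusted p of 0.00953, held in all 16 alternatives. Of the 50-base windows of Rdh9, 92.3% occur in another gene, nearly all of them in Rdh16f1, so the reads of that locus cannot be given to Rdh9 alone. Hsd17b6, which encodes a dehydrogenase of retinol and androgens, fell to 42.0 ± 21.6 RPKM in dKO, against 122.8 ± 23.8 RPKM in control (limma adjusted p of 0.0374, lost in 6 of 16 alternatives, range 0.00477 to 0.123). Of its 50-base windows, 13.5% also occur in other genes, mainly Rdh1 and Rdh16f1. Adh7, a class IV alcohol dehydrogenase gene, fell to 2.19 ± 0.64 RPKM in dKO, against 4.58 ± 1.11 RPKM in control (limma adjusted p of 0.0276, lost in 4 of 16, range 0.00435 to 0.092). The abundant alcohol dehydrogenase gene Adh1 was at 1033 ± 46.4 RPKM in dKO and 941 ± 90.5 RPKM in control (limma adjusted p of 0.6).

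Retinal oxidation had 3 tested genes, of which 1 was called. Aox1, an aldehyde oxidase gene, rose to 13.3 ± 1.42 RPKM in dKO, against 8.04 ± 1.77 RPKM in control (limma adjusted p of 0.0228, lost in 7 of 16, range 0.000452 to 0.119). Aldh1a2, the retinal dehydrogenase of mesenchymal cells, was below the minimum, at 0.11 to 0.20 RPKM in dKO and 0.07 to 0.38 RPKM in control. Bcmo1 (Bco1), which cleaves beta-carotene to retinal, fell to 2.42 ± 0.63 RPKM in dKO, against 5.27 ± 0.36 RPKM in control (limma adjusted p of 0.00928, held in all 16 alternatives). Retsat, the retinol saturase gene, averaged 39.1 ± 13.6 RPKM in dKO and 62.0 ± 18.6 RPKM in control (limma adjusted p of 0.157).

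Among the retinoic acid hydroxylases, Cyp2c39 was called lower and Cyp26b1 was not called. Cyp2c39 measured 112.5, 183.9 and 72.8 RPKM in dKO libraries, against 469.1, 282.5 and 335.2 RPKM in control libraries, with a log2 change of -1.62 ± 0.34 (SE) and a limma adjusted p of 0.0167, which reached 0.063 without control replicate 1 (range over 16 alternatives 0.000849 to 0.063). Of its 50-base windows, 12% occur in other genes, mainly Cyp2c38. Cyp26b1 measured 1.03, 0.68 and 5.89 RPKM in dKO libraries and 1.54, 0.46 and 1.21 RPKM in control libraries, with its highest value in dKO replicate 3, as for Cyp26a1 (limma adjusted p of 0.517).

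Of 6 receptor genes 1 was called. Rxrg rose to 3.15 ± 0.30 RPKM in dKO, against 1.88 ± 0.47 RPKM in control (limma adjusted p of 0.049), a call lost in 10 of 16 alternatives (range 0.00565 to 0.463). Rxra, the main RXR of hepatocytes, was at 69.5 ± 2.62 RPKM in dKO and 70.4 ± 1.55 RPKM in control (limma adjusted p of 0.932), with no change detectable at this spread. Rara was at 7.85 ± 0.63 RPKM in dKO and 5.96 ± 0.87 RPKM in control (limma adjusted p of 0.0958). Rarb, itself a target of retinoic acid, was at 4.94 ± 2.08 RPKM in dKO and 3.53 ± 0.98 RPKM in control (limma adjusted p of 0.325). Of 6 listed genes that retinoic acid induces, 3 were tested and 2 rose. Tgm2, a tissue transglutaminase gene, reached 132.4 ± 31.0 RPKM in dKO, against 62.8 ± 9.25 RPKM in control (limma adjusted p of 0.0113). Rarres1 reached 14.1 ± 0.52 RPKM in dKO, against 6.21 ± 1.55 RPKM in control (limma adjusted p of 0.00522). Both calls held in all 16 alternatives.

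**Figure D4:**
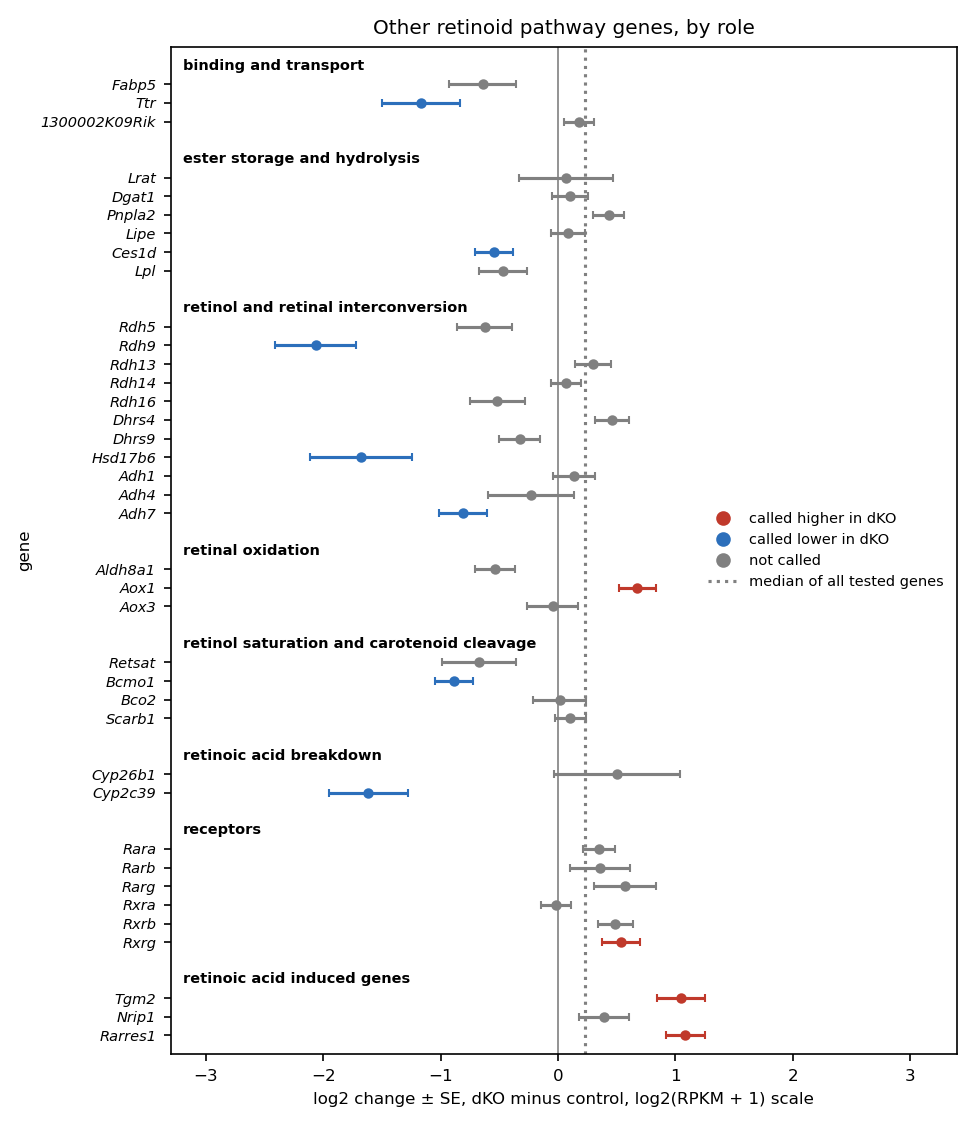
Log2 change ± SE of 38 of the 39 tested genes of retinoid handling other than the 8 members, dKO minus control in log2(RPKM + 1) units (x axis), grouped by role; red marks genes called higher in dKO, blue genes called lower and grey genes not called. The 4 red and 7 blue points stand on either side of the dotted line, the median of all tested genes at 0.23.

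Several cell types of liver handle retinoids. Stellate cell markers were called higher at 3 and lower at 1 of 15 tested genes (20% and 6.67%, beside 17.8% and 2.17% of all tested genes), and their summed level was 288 to 441 RPKM in dKO and 264 to 277 RPKM in control libraries. Biliary markers were called higher at 8 of 8 tested genes, with sums of 404 to 1091 RPKM in dKO and 57.2 to 112 RPKM in control libraries. Much of these sums was Spp1, at 306 to 910 RPKM in dKO and 18.7 to 64.7 RPKM in control. Of 8 macrophage markers 2, or 25%, were called higher (sums of 198 to 297 RPKM in dKO and 118 to 230 RPKM in control), and of 6 endothelial markers 0 were called with limma (sums of 84.3 to 99.8 RPKM in dKO and 75.4 to 83.9 RPKM in control), with 0 of them at an unadjusted p under 0.05. None of the listed markers was at 0 in all libraries. Hepatocyte markers, the defining genes of the tissue, summed to 39991 to 46803 RPKM in dKO and 46387 to 59867 RPKM in control libraries, with 3 of 10 called lower. Most of that sum was Alb, at 34054 to 37822 RPKM in dKO and 36157 to 46961 RPKM in control. Pericentral hepatocyte genes, expressed around the central vein, were called lower at 8 of 10 genes (626 to 1274 RPKM in dKO and 2798 to 3494 RPKM in control). Most of that sum was Cyp2e1, at 325 to 766 RPKM in dKO and 1579 to 2541 RPKM in control. Of 8 periportal genes 3 were called lower and 1 higher (1179 to 1893 RPKM in dKO and 1738 to 1999.5 RPKM in control). That sum holds Cyp2f2, not called, at 322 to 687 RPKM in dKO and 201 to 352 RPKM in control. All dKO values lay below all control values at 6 of the 8 periportal genes, beside 6.73% of all tested genes. They lay above at 1, beside 38.3%. After median-ratio scaling the calls were 1 higher and 1 lower for stellate cell, 7 higher for biliary and 2 higher and 1 lower for macrophage markers. They were 1 lower for hepatocyte, 8 lower for pericentral and 4 lower for periportal genes, with none higher among these 3 lists. The part of these shifts in the values of Aldh1a7, Dhrs3 and the genes called above was not tested.

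Among 6577 non-member genes averaging 5 RPKM or more, the profile nearest to Aldh1a7 over the 6 libraries, as root mean square distance of centred log2(RPKM + 1), was that of Idh2 (0.0733), a mitochondrial isocitrate dehydrogenase gene. Idh2 measured 114.9, 112.4 and 119.6 RPKM in dKO libraries, against 36.1, 56.3 and 48.6 RPKM in control libraries. The profiles nearest to Dhrs3 were those of Crip2 (0.0374), which encodes a LIM domain protein, and Dlc1 (0.0598). Crip2 measured 34.1, 36.9 and 39.4 RPKM in dKO libraries, against 25.9, 20.3 and 25.5 RPKM in control libraries. These genes were chosen for their likeness, so their values are a description.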

How the data were processed

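Polyadenylated RNA of mouse liver was sequenced in 6 libraries, 3 dKO and 3 control, and each of the 6 deposited files held a value per gene symbol for 1 library. Values were read as RPKM that the authors computed before they were deposited; the aligner, counter and annotation are not given in the sources used here. Per the submitters' processing notes, the build was mm9. The unit rests on the values: 76.6% to 79.3% of low values of genes with a single GENCODE M21 transcript lay within 0.15 of a whole read at the best spacing, which also gave the depths, beside 30% for evenly spread values. Because that spacing was itself picked to suit the values, the unit was not tested.

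The members, lists, tests and alternatives were chosen with earlier results of these data known. Values were taken as log2(RPKM + 1) and genes averaging 1 RPKM or more kept. The fit used limma 3.58.1 in R 4.3.3 with trend and robust moderation, without a block, over all 11062 genes, with Benjamini-Hochberg adjustment, and was tested on simulated data. Sums and ratios used exact two-sided permutation tests over libraries. Named genes were the 8 members, each called gene of the retinoid list with 11 others of it given by name, and the 2 nearest profiles of each called member, and some of the genes so named are not reported here. Sequences came from RefSeq GRCm38.p6 and transcripts from GENCODE M21, on another build than mm9, so no mm9 position is given. Alternatives were 4 scalings, sample weights, leaving out each library, a replicate block, a pseudocount of 0.1, moderation that was not robust, and a filter of 1 RPKM in 3 libraries or none. Python 3.11.15, scipy 1.17.1 and matplotlib 3.10.9 were used.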

Additional observations from a re-analysis of the deposited data

How the results depend on the processing

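Of the 8 members, Aldh1a7 kept its call and direction in all 16 alternatives. The Dhrs3 log2 change was 0.38 with median-ratio scaling, 0.43 with upper-quartile scaling and 0.67 with a replicate block, none of which passed the threshold, and 0.57 to 0.74 with 1 library left out. The Aldh1a1 log2 change passed under quantile normalization (0.67) and sample weights (0.84), and that of Rdh11 under sample weights (0.34). The direction turned for Rbp4 (-0.033) and Rdh7 (-0.15) with median-ratio scaling, for Rdh7 with upper-quartile scaling (-0.11), and, with 1 library left out, for Rdh10 (-0.22 to 0.0092) and Cyp26a1 (-0.30 to 1.31). Members called higher numbered 1 with median-ratio scaling, upper-quartile scaling or the replicate block, 4 with sample weights and 1 to 2 with 1 library left out. Genes of the retinoid list called higher numbered 2 under quantile normalization and under both median-ratio and upper-quartile scaling, 10 with sample weights and 2 to 6 with 1 library left out. Those called lower numbered 3 without a filter, 13 with sample weights and 2 to 7 with 1 library left out. Over all genes, 873 were called higher and 614 lower with median-ratio scaling, 953 and 540 with upper-quartile scaling, 744 and 547 under quantile normalization and 4133 and 601 with sample weights. Without a filter 145 were called lower, and with 1 library left out 763 to 1992 were called higher and 90 to 241 lower. Among other named genes the direction turned for Lrat (-0.19 with median-ratio, -0.15 with upper-quartile scaling, -0.17 under quantile normalization, -0.22 with sample weights, -0.40 to 0.45 with 1 library left out) and Adh1 (-0.15 and -0.11 with median-ratio and upper-quartile scaling). It also turned for Cyp26b1 (-0.036) and Rxra (0.011) with sample weights, and for Rxra with 1 library left out (-0.044 to 0.0091). The cause of these changes was not tested. The deviations of same-numbered libraries from their group means correlated at -0.0806, -0.101 and -0.00985. These values give no sign of pairing by replicate number, but such a check cannot exclude it. With 1 library left out, the exact tests could give no p under 0.2. Sums and ratios kept their direction in every alternative run on them. Read counts were not used here, so no counting interval is given, and precision rests on the spread of 3 libraries a group.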
